A study of Homo sapiens with 24 samples.

Results

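The comparison described here is that of BAY 60-2770 with its solvent in HK-2 cells kept in hypoxia. HK-2 is an immortalised epithelial line from the human proximal tubule, and BAY 60-2770 is an activator of soluble guanylate cyclase (sGC). The libraries were chosen by their labels, 3 of cells in hypoxia with the sGC activator and 3 of cells in hypoxia with solvent, 6 of the 24 libraries of the series. Both groups were serum-deprived overnight and then held for 24 h at 0.3% oxygen, and each group is made of cultures of a single line. The solvent was 0.0001% DMSO with 4 µM HCl and 0.0001% BSA. For the comparison across oxygen levels, 5 normoxic libraries with solvent and 3 normoxic libraries with BAY 60-2770 were used. The series also holds normoxic libraries with TGF-β1, 5 without and 5 with BAY 60-2770. They enter only an alternative fit of all 24 libraries and a closing observation on the markers. The labels give the final concentration of BAY 60-2770 as 1 mM. DMSO at 0.0001% is a 1000000-fold dilution, for which 1 mM would need a stock of 1000 M, so the dose behind every value below is uncertain.

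Soluble guanylate cyclase is a heterodimer of an alpha and a haem-carrying beta subunit that makes cyclic GMP when nitric oxide binds its haem. Activators such as BAY 60-2770 act on the form whose haem is oxidised or lost. Cyclic GMP works through its protein kinases, through ion channels, and through phosphodiesterases that break it down or are inhibited by it, so that cyclic AMP can change too. Hypoxia stabilises the HIF alpha subunits, which raise genes of glycolysis, angiogenesis and pH control, and the proximal tubule is among the parts of the kidney most exposed to low oxygen.

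The hypoxic libraries held 78862528 to 97240246 counts. Genes encoded in the mitochondria took 3.53% to 3.66% of the counts with BAY 60-2770 and 3.51% to 3.87% with solvent, and these ranges overlapped. The labels describe biological replicates without saying whether they were separate passages or days, and the p-values therefore rest only on the spread among the libraries, which may be technical. RNA numbers also run in separate blocks for the treated and the control cultures (21 to 23 and 31 to 33), and a handling order that follows those numbers cannot be told apart from the treatment. Among the normoxic solvent libraries, replicates 3 and 4 stood apart from replicates 1, 2 and 5 on the fourth principal component, at 37.5 and 38.7 against -5.94 to -19.0. They also did on the second (16.4% of the variance), at -13.8 and -16.9 against -28.1 to -29.6. On the third (6.29%) they were at 14.4 and 16.1 against -19.6 to -35.4. Normoxic libraries with BAY 60-2770 lay at 55.1 to 56.7 on the second and 12.6 to 15.2 on the third. Levels of the normoxic controls enter only the comparison across oxygen levels. That comparison is given with each control set alone for some of the genes and lists. All 14 libraries share the filter and the estimate of spread, however, so that these controls also bear on the SE and the calls in hypoxia; the 6 hypoxic libraries alone gave 7761 called genes in place of 8087.

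Markers of the labelled cell type were only partly present. Of 17 proximal tubule markers, 12 passed the filter on low counts. The transcription factor PAX8 was well expressed and rose from 387 to 626 CPM, log2 0.69, and the gamma-glutamyl transferase GGT1 stood at 221 and 231 CPM with solvent and with BAY 60-2770. The endocytic receptors LRP2 and CUBN and the factor HNF4A were near 0, with means of 0.174, 0.456 and 0.0222 CPM with solvent. LRP2 and HNF4A rose at these levels, and the peptidase MME (52.9 to 43.7 CPM, log2 -0.27) and ALPL fell. The MME call was lost without treated replicate 3 (-0.18). SLC5A2 (1.22 to 0.833 CPM, log2 -0.55) was called lower, a call lost in 6 settings, among them those without treated replicate 1 or 2 (-0.54 and -0.44) or control replicate 1 or 2 (-0.51 and -0.55). The 12 markers summed to 1070 to 1231 CPM in the treated libraries and to 794 to 869 CPM in the controls. Of the markers of other cells, 4 of 9 for fibroblasts, 2 of 9 for endothelium, 5 of 9 for immune cells, 4 of 7 for podocytes and 5 of 9 for the distal nephron passed the filter. The endothelial markers CDH5, CLDN5 and EMCN, the lymphocyte marker CD3E and the distal markers UMOD and AQP2 had 0 counts in all 6 libraries. The podocyte list summed to 1262 to 1391 CPM against 465 to 502 CPM, nearly all of it SYNPO, an actin-binding protein described below, while PODXL fell (4.67 to 2.03 CPM, log2 -1.20). The fibroblast list summed to 229 to 249 CPM against 128 to 136 CPM, mostly the proteoglycans LUM and DCN, also below; COL1A2, COL3A1 and POSTN did not exceed 0.0254 CPM. The endothelial list summed to 45.8 to 48.2 against 43.6 to 52.98 CPM, the immune list to 388 to 444 against 437 to 456 CPM (CD68 rose and ITGAM, CD14, CD74 and CSF1R fell), and the distal list to 29.6 to 30.6 against 32.6 to 37.8 CPM. The part of other cells in the results was not tested. In bulk libraries a smaller share of cells with a transcript and less of it per cell cannot be told apart.

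BAY 60-2770 changed the levels of many genes in hypoxia, most of them by little. With edgeR's quasi-likelihood test at a Benjamini-Hochberg adjusted p below 0.05, 8087 of 21316 tested genes were called, or 37.9%. Higher genes numbered 3524, which is 16.5% of those tested, and lower genes 4563, or 21.4%. Of 14285 protein-coding genes 47.6% were called (2939 higher, 3865 lower), against 19.7% of lincRNA and 17.8% of antisense genes. The gene lists below hold protein-coding genes almost wholly, so that 47.6% is their closer background. Of the called genes 5636 moved by less than 1.5-fold, 1082 moved by at least 2-fold (464 up, 618 down), and the median log2 change of all tested genes was -0.02. At 4-fold or more, 109 genes rose and 121 fell. Treated and control libraries did not overlap for 10387 of the 21316 tested genes, 7780 of them called, so that such separation was common. Levels below are counts divided by the library's effective total and multiplied by 1000000 (CPM), which carry no gene length, so that they compare libraries and not genes. Fold changes are BAY 60-2770 over solvent, on the log2 scale, with their standard errors (SE).

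**Figure D1:**
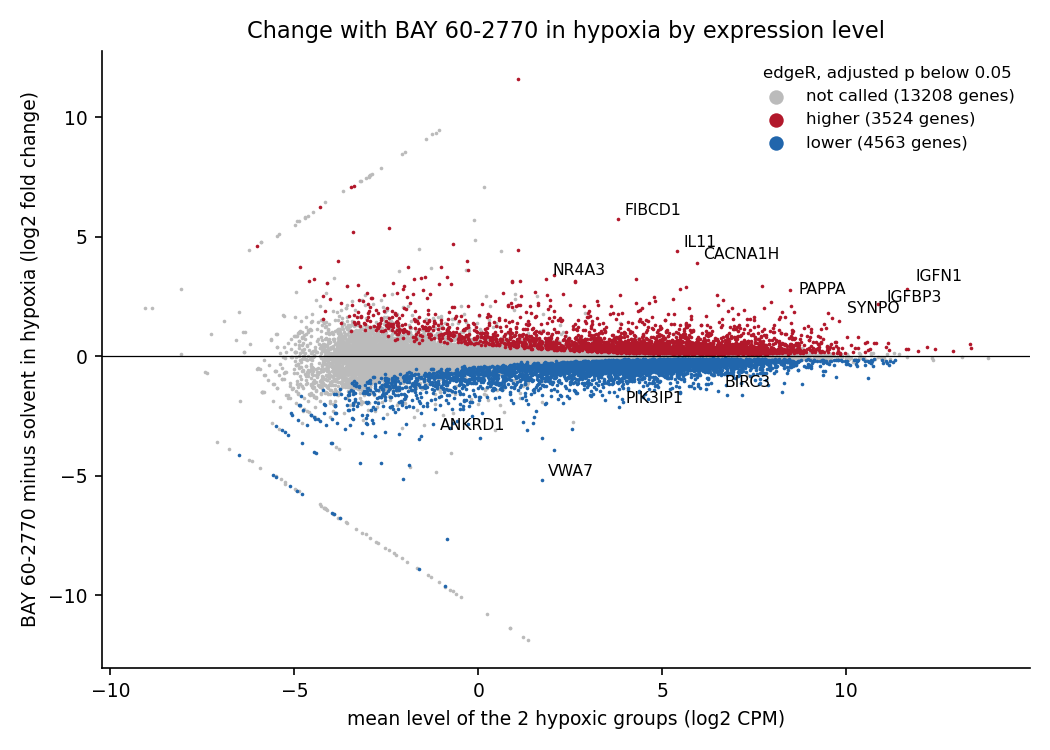
Log2 fold change of each gene with BAY 60-2770 in hypoxia (vertical axis) against its mean level in the hypoxic groups (horizontal axis, log2 CPM); each point is a gene, red for higher, blue for lower and grey for not called, and 21 genes at 0 in all 6 libraries are not drawn. FIBCD1, IL11 and CACNA1H stand above other genes of their level, and the slanting rows of points at low levels are genes with almost no counts in one of the groups.

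Among genes at 5 CPM or more whose groups did not overlap, the largest rise was that of FIBCD1 (ENSG00000130720; chr9:130902438-130939286, minus strand on GRCh38), which encodes a membrane receptor with a fibrinogen-like domain that binds acetylated structures such as chitin. Its level was 28.7, 24.5 and 29.5 CPM in the 3 libraries with BAY 60-2770 and 0.513, 0.505 and 0.532 CPM in the 3 with solvent. The groups were far apart, with a log2 fold change of 5.73 (SE 0.210, adjusted p 4.1e-11, edgeR), or 53.2-fold. The difference was far smaller in normoxia, where the mean went from 0.0846 ± 0.0346 (SD, n = 5) to 0.273 ± 0.0895 CPM (SD, n = 3). IL11 (ENSG00000095752; chr19:55364389-55370463, minus strand) is a cytokine of the IL-6 family that signals through IL11RA and the shared chain IL6ST. It reached 81.6, 88.6 and 72.6 CPM with BAY 60-2770 against 3.83, 3.87 and 3.76 CPM with solvent, a log2 fold change of 4.40 (SE 0.0944, adjusted p 1.1e-13, edgeR). Control libraries of IL11 lay within a narrow range, and every treated library was far above them.

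CACNA1H (ENSG00000196557; chr16:1153121-1221772, plus strand) encodes the pore of the Cav3.2 T-type calcium channel, which opens at low voltages. Its treated libraries held 115, 125 and 108 CPM and its controls 8.03, 7.55 and 7.84 CPM, for a log2 fold change of 3.89 (SE 0.122, adjusted p 5.0e-11, edgeR). SLC7A5 (ENSG00000103257; chr16:87830023-87869488, minus strand) encodes LAT1, the exchanger that brings leucine and other large neutral amino acids into cells. Here 567, 584 and 639 CPM stood against 162, 163 and 173 CPM, with a log2 fold change of 1.85 (SE 0.0455, adjusted p 5.0e-13, edgeR). SLC7A5 was already higher in hypoxic than in normoxic controls (75.8 ± 1.31 CPM, SD, n = 5), and normoxic cells with BAY 60-2770 held 69.2 ± 1.52 CPM (SD, n = 3). None of these 4 genes had overlapping groups in hypoxia, as was true of 10387 of the 21316 tested genes.

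**Figure D2:**
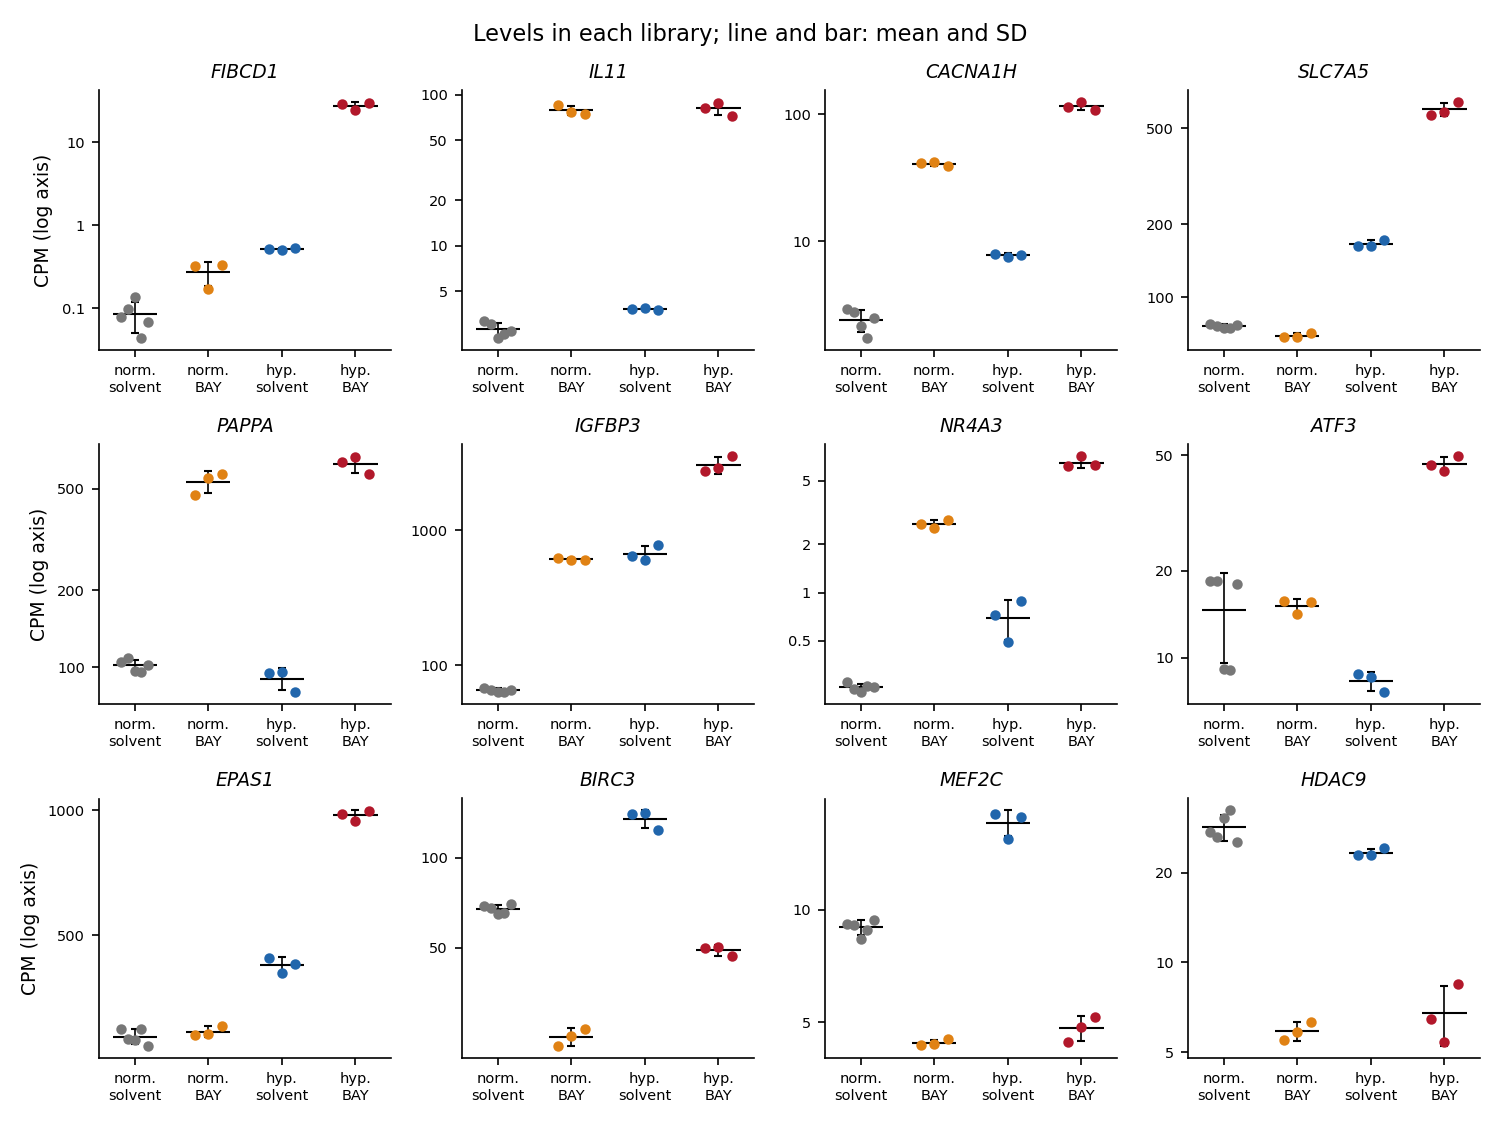
CPM (log axes, each panel its own range) of 12 genes in every library of the 4 groups, with the mean as a line and the SD as a bar; grey is normoxia with solvent, orange normoxia with BAY 60-2770, blue hypoxia with solvent and red hypoxia with BAY 60-2770. FIBCD1, SLC7A5, ATF3 and EPAS1 are raised by BAY 60-2770 mainly in the hypoxic groups, whereas IL11 and PAPPA rise at both oxygen levels; for ATF3 the 5 normoxic controls fall into the sets described in the text.

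Among called genes whose groups did not overlap and whose mean was 5 CPM or more with or without the compound, the 15 largest rises held FIBCD1, IL11 and CACNA1H and 12 others. SLC38A3, a glutamine transporter of the proximal tubule, went from 0.718 to 7.55 CPM, log2 3.40 (SE 0.187), and CSGALNACT1, which starts chondroitin sulfate chains, from 3.73 to 35.2 CPM, log2 3.24 (SE 0.209). The orphan nuclear receptor NR4A3 rose from 0.700 to 6.497 CPM, log2 3.21 (SE 0.169), the matricellular protein CCN5 from 1.26 to 11.1 CPM, log2 3.14 and the potassium channel family gene KCNK15 from 1.28 to 11.2 CPM, log2 3.13. CDKN1C, the p57 inhibitor of cyclin-dependent kinases, had 365, 357 and 393 CPM with BAY 60-2770 and 47.7, 51.1 and 46.1 CPM with solvent, with a log2 fold change of 2.94 (SE 0.182). P2RY6, a receptor for UDP, stood at 77.8, 77.9 and 79.8 against 12.0, 11.0 and 10.7 CPM. Its replicates differed little within each group.

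PAPPA, the protease that cleaves IGF binding proteins, reached 636, 663 and 573 CPM with BAY 60-2770 and 95.2, 95.3 and 79.9 CPM with solvent. The proteoglycan decorin (DCN, 0.772 to 5.00 CPM, log2 2.70), the gluconeogenic enzyme PCK1 (1.38 to 8.44 CPM, log2 2.61) and the small GTPase RHOB (25.9 to 155 CPM, log2 2.58, SE 0.388) complete the group together with IGFN1 (808 to 5605 CPM, log2 2.79, SE 0.354). The adjusted p of these 12 genes was between 1.1e-13 and 3.4e-04 in edgeR's test.

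The 15 largest falls under the same rule were mostly smaller than the rises. PIK3IP1, a negative regulator of PI3 kinase, went to 4.77, 4.48 and 6.59 CPM with BAY 60-2770 from 22.3, 24.8 and 22.2 CPM with solvent (log2 -2.13, SE 0.111). MEF2C, a transcription factor of muscle and neural genes, had 4.43, 4.87 and 5.16 against 18.0, 15.5 and 17.6 CPM (log2 -1.82, SE 0.0792). HDAC9, a class IIa histone deacetylase that binds MEF2 factors, had 6.48, 5.43 and 8.48 against 22.9, 22.9 and 24.2 CPM (log2 -1.78, SE 0.131). In each of these genes the lowest control was more than 2 times the highest treated library.

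Falls of similar size were those of the adaptor DOK3 (5.61 to 1.39 CPM, log2 -2.02), the nicotinamide riboside kinase NMRK2 (24.3 to 6.51 CPM, log2 -1.90), the transcription factors NFE2L3 (38.2 to 11.1 CPM, log2 -1.78) and IKZF3 (8.06 to 2.51 CPM, log2 -1.68), and the arrestin-domain protein ARRDC4 (8.57 to 2.55 CPM, log2 -1.75). The ubiquitin ligase RNF144B (33.8 to 10.5 CPM, log2 -1.69), CCDC88C, a partner of Dishevelled (20.9 to 6.58 CPM, log2 -1.67), and NAT8L, which makes N-acetylaspartate (12.7 to 4.03 CPM, log2 -1.66), fell as well. So did the noncoding genes MIR3142HG (6.91 to 2.03 CPM, log2 -1.77) and MAP3K4-AS1 (7.18 to 2.26 CPM, log2 -1.67). MAP3K4-AS1 lies antisense to MAP3K4, and because the use of strand in the quantification is not given in the sources used here, their reads may not be separated. The other two rested on uneven libraries. UBD, a ubiquitin-like protein induced by cytokines, had 0, 0.731 and 0.983 CPM against 6.45, 6.59 and 5.16 CPM (log2 -3.44, SE 0.686), and its call was lost in a fit of the 6 hypoxic libraries alone. VWA7 had 0, 0 and 0.536 against 11.6, 6.19 and 1.499 CPM, so that its controls themselves spread widely; its log2 value of -5.18 (SE 1.55) lost its call without any of treated replicates 1 and 2 or control replicate 1 (-4.56, -4.63 and -4.44).

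The enzyme that the compound acts on changed in a split way. GUCY1B1, the haem-binding beta subunit, rose from 80.0, 74.9 and 73.8 to 107, 104 and 86.1 CPM (log2 0.38, SE 0.0624). GUCY1A1, its usual alpha partner, fell from 33.4, 31.9 and 29.1 to 26.4, 24.8 and 23.7 CPM (log2 -0.33, SE 0.0564). Both shifts were small, and the groups did not overlap, as was true of 10387 of the 21316 tested genes. The alternative alpha subunit GUCY1A2 held 13.3, 12.3 and 10.5 CPM with solvent and 10.8, 11.1 and 10.0 CPM with BAY 60-2770, a log2 difference of -0.18 that was not called (edgeR adjusted p 0.14) but was called at -0.27 without control replicate 3.

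Over the cyclic GMP list, 24 of 28 genes passed the filter, 4 were called higher and 9 lower, and the median log2 change was -0.23, against -0.02 for all genes. The share called was 54.2%, against 47.6% of protein-coding genes. The largest change was in PDE3A, the phosphodiesterase that cyclic GMP inhibits and that breaks down cyclic AMP, with 5.80, 6.63 and 6.17 CPM against 1.20, 1.10 and 0.834 CPM (log2 2.56, SE 0.194, edgeR adjusted p 6.4e-08). Its paralog PDE3B moved the other way, from 25.2 to 19.4 CPM, log2 -0.37. PDE9A, a phosphodiesterase selective for cyclic GMP, rose from 3.63, 3.99 and 3.50 to 8.78, 8.38 and 7.57 CPM (log2 1.15), and PDE10A, which takes both nucleotides, from 154 to 198 CPM, log2 0.36. PDE5A, the classical cyclic GMP phosphodiesterase, was near the floor and fell from 1.47 to 1.10 CPM, log2 -0.43, a call lost in 5 of the alternative settings, among them those without treated replicate 3 (-0.34) or control replicate 1 or 2 (-0.38 both). PDE11A, also at low level, fell from 0.783 to 0.399 CPM, log2 -0.97.

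The kinases that receive cyclic GMP were barely expressed. PRKG1, with means of 0.256 and 0.312 CPM with solvent and BAY 60-2770, and PRKG2, with 1.35 and 1.52 CPM, were not called (edgeR adjusted p 0.45 and 0.47). IRAG1, a kinase substrate at the calcium store, was near 0 (0.0819 and 0.0704 CPM), whereas the cytoskeletal substrate VASP fell from 91.3 to 72.5 CPM, log2 -0.33. The natriuretic peptide receptor NPR1, a membrane guanylate cyclase, fell from 278 to 235 CPM, log2 -0.24 (SE 0.0389), a call lost when all 24 libraries were fitted; NPR2 (0.517 and 0.375 CPM) and NPR3 (0.0879 and 0.125 CPM) were not called. The exporters of cyclic nucleotides ABCC4 (101 to 80.4 CPM, log2 -0.33) and ABCC5 (54.4 to 45.4 CPM, log2 -0.26) fell. Of the nitric oxide synthases NOS2 fell at a level close to 0, with overlapping groups (0.203 to 0.0836 CPM, log2 -1.23; its call was lost in 5 settings, among them those without treated replicate 2 or 3 or control replicate 2 or 3, at -1.11, -0.90, -1.09 and -1.09), and NOS3 stood at 1.69 and 1.49 CPM. The remaining members were not called: PDE1A and PDE2A, CNGA1 and the delta subunit PDE6D, all but the last below 1 CPM in both groups.

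**Figure D3:**
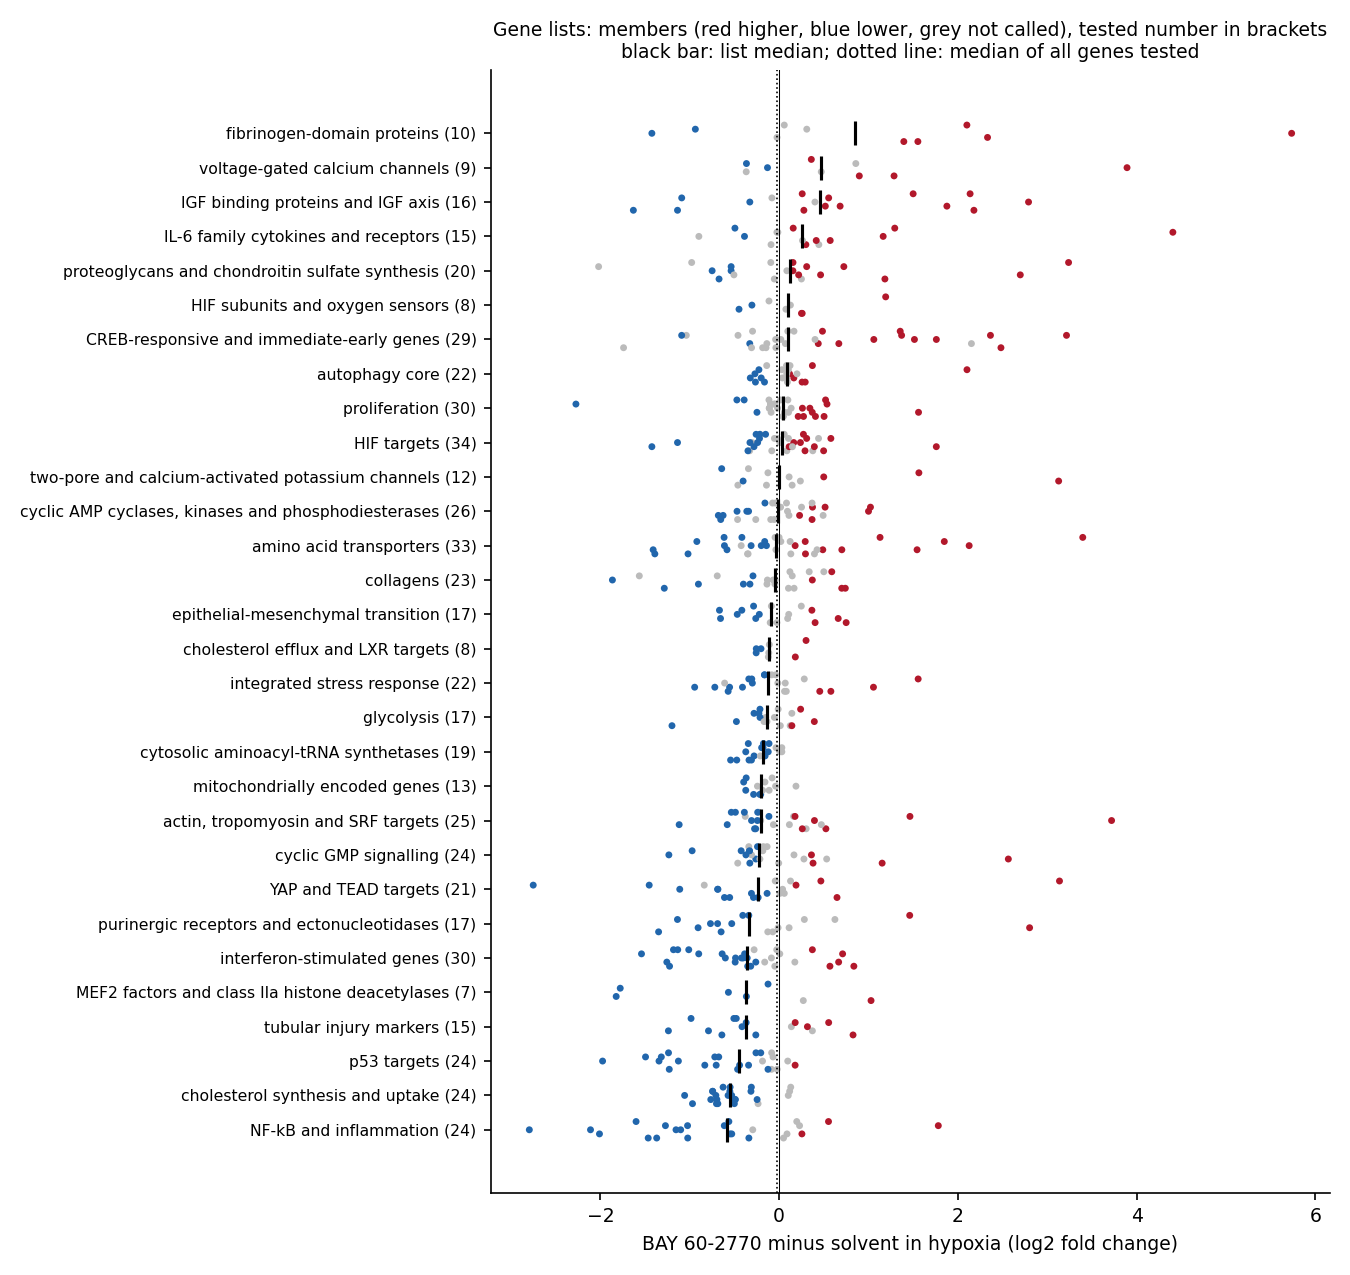
Log2 fold change with BAY 60-2770 in hypoxia of the tested members of 30 gene lists, one point per gene, red for higher, blue for lower and grey for not called; the number tested is in brackets, the black bar is the list's median and the dotted line the median of all genes. Lists for NF-kB, cholesterol synthesis and p53 lie mostly to the left, and those for the IGF axis and the CREB-responsive genes hold more red points than blue.

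Genes that respond to the cyclic nucleotide-activated factor CREB and immediate-early genes rose in part. All 29 listed genes were tested, of which 11 were higher and 2 lower (median 0.10). The share called, 44.8%, was near the 47.6% of protein-coding genes. NR4A3 was joined by NR4A2 (0.770 to 2.21 CPM, log2 1.51) and NR4A1 (7.32 to 11.6 CPM, log2 0.67). The neuropeptide precursor VGF had 155, 157 and 189 CPM with BAY 60-2770 and 31.0, 32.9 and 33.6 CPM with solvent (log2 2.36, SE 0.101), the stress-induced repressor ATF3 46.4, 43.9 and 49.5 against 8.80, 8.59 and 7.63 CPM (log2 2.48, SE 0.281), and the MAP kinase phosphatase DUSP1 206, 206 and 206 against 60.9, 57.0 and 64.7 CPM (log2 1.76, SE 0.273). The SE of DUSP1 carries the spread of its normoxic controls, whose SD was 17.7 CPM. CREM, itself a factor of the CREB family, rose from 8.18 to 21.1 CPM, log2 1.37, and SIK1, a kinase of the CREB coactivators, from 137 to 286 CPM, log2 1.06. The factors of the serum response did not share this: FOS (3.64 and 3.30 CPM) and EGR1 (4.46 and 2.17 CPM) were not called, and FOSL1 fell from 31.5 to 14.8 CPM, log2 -1.09. CREB1 itself stood at 46.9 and 45.7 CPM.

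The promoters of these 11 higher genes were searched for the full cyclic AMP response element, because it is the site that CREB binds. The letters searched were TGACGTCA, which read the same on both strands, in the window from 250 bases before to 50 bases after the start site in the RefSeq promoter table (GRCh38.p14). That table held 10 of the 11 genes, and 2 of the 10 had the element. It was in 1.85% of all 35116 promoters and 2.99% of the 12622 tested genes with a promoter. None of the 6 promoters found for the 15 largest rises had the element. The 11 genes come from a list chosen as CREB-responsive, so a share above that of all promoters can follow from that choice alone. List members not called higher were not compared as a set, so a link of the element to the compound was not tested. The matches are shown with 40 bases on each side, the element in capitals, on the strand of the gene. In DUSP1 its first base lies at -125 from the start site (chr5:172771273-172771360, minus strand) and in VGF at -79 (chr7:101165601-101165688, minus strand).
DUSP1: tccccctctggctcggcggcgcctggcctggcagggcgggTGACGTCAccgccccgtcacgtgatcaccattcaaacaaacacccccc
VGF: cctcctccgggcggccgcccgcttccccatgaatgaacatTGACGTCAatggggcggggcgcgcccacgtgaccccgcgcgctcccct
A match is a description of the letters, not evidence of binding, and no match says only that these letters are not in this window.

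Enzymes of cyclic AMP did not shift as a group. Of 26 tested genes 6 were higher and 7 lower, with a median of -0.01 that changed sign in 2 settings. The cyclase ADCY5 (1.90 to 3.87 CPM, log2 1.02) and the phosphodiesterase PDE7B (1.16 to 2.31 CPM, log2 1.00) rose about 2-fold at low levels, and the cyclase ADCY8 (26.4 to 16.5 CPM, log2 -0.68), the kinase inhibitor PKIA (11.5 to 7.33 CPM, log2 -0.65) and the regulatory subunit PRKAR1B (51.5 to 33.3 CPM, log2 -0.63) fell.

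Cytokines of the IL-6 family rose in part while their receptors moved in both directions. LIF, which maintains stem cells and acts through LIFR and IL6ST, rose from 81.6, 74.1 and 80.3 to 172, 188 and 218 CPM (log2 1.29, SE 0.0972). The oncostatin M receptor OSMR (322 to 478 CPM, log2 0.57) and IL6R (63.3 to 84.4 CPM, log2 0.41) rose, and IL11RA, the receptor of IL-11, fell at low level (1.58 to 1.12 CPM, log2 -0.49; lost without treated replicate 1, -0.45). IL6ST, shared by the family, fell from 108 to 82.6 CPM, log2 -0.39, and LIFR (17.2 and 16.1 CPM) and IL6 (2.93 and 3.99 CPM) were not called. In all 7 of 15 tested members were higher and 2 lower (median 0.26).

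The IGF axis held more higher genes. Of 16 tested genes 10 were higher and 4 lower, with a median of 0.46. IGFBP3, the main carrier of IGFs in serum, had 2729, 2882 and 3537 CPM with BAY 60-2770 and 648, 599 and 774 CPM with solvent (log2 2.18, SE 0.0959). All treated libraries were above 3 times any control. IGFBP1 (1.13 to 4.98 CPM, log2 2.14), IGFBP4, the substrate of PAPPA (3.46 to 12.7 CPM, log2 1.88), and IGFBP7 (336 to 494 CPM, log2 0.55) also rose. The receptor IGF1R rose from 185 to 296 CPM, log2 0.68, and the adaptor IRS2 from 298 to 426 CPM, log2 0.52. STC2, a secreted inhibitor of PAPPA, fell from 252, 261 and 318 to 135, 121 and 122 CPM (log2 -1.14, SE 0.0692). The ligands were scarce, with IGF2 at 0.535 and 0.707 CPM and not called, and IGF1 falling from 0.867 to 0.279 CPM, log2 -1.63.

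Of the voltage-gated calcium channel genes 9 of 18 passed the filter, 4 were higher and 2 lower (median 0.47), or 1 lower without treated replicate 2 or 3 or control replicate 1 or 2. Beside CACNA1H, the L-type pore CACNA1D rose from 0.972 to 2.37 CPM, log2 1.29 and the auxiliary subunits CACNA2D3 and CACNA2D1 from 8.67 to 16.1 CPM, log2 0.90 and 26.7 to 34.3 CPM, log2 0.36; the beta subunit CACNB4 fell from 16.4 to 12.7 CPM, log2 -0.37. Of 12 two-pore and calcium-activated potassium channel genes 3 were higher, KCNK15, KCNK3 (TASK-1, 65.8, 62.9 and 54.7 to 184, 197 and 161 CPM, log2 1.56) and KCNK2 (TREK-1, 35.9 to 50.8 CPM, log2 0.50), and 2 lower, KCNMB4 (1.93 to 1.24 CPM, log2 -0.64) and KCNN4 (8.96 to 6.77 CPM, log2 -0.40). The share called, 41.7%, was near that of all genes and below that of protein-coding genes. The KCNN4 call was lost in 8 settings, with any control replicate left out (-0.38, -0.47 and -0.37) and without treated replicate 1 or 2 (-0.32 and -0.37). Purinergic receptors moved in both directions: the nucleotide receptors P2RY2 (11.1 to 30.5 CPM, log2 1.46) and P2RY6 rose, while P2RY11 (11.0 to 5.00 CPM, log2 -1.14), the ion channel P2RX5 (10.5 to 4.14 CPM, log2 -1.35) and the adenosine receptor ADORA2A (3.07 to 1.63 CPM, log2 -0.91; lost when all 24 libraries were fitted) fell. That list had 2 higher and 9 lower of 17 tested (median -0.34).

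Amino acid transporters changed in both directions. Of 33 tested genes 10 were higher and 12 lower, with a median of -0.04 that turned to 0.04 without control replicate 2. The cationic transporter SLC7A2 rose from 38.3, 35.6 and 28.95 to 159.9, 150.2 and 139 CPM (log2 2.13, SE 0.0909) and the taurine transporter SLC6A6 from 150.3, 147 and 147 to 444, 417 and 437 CPM (log2 1.54, SE 0.0491). SLC3A2, the heavy chain that carries LAT1 to the membrane, rose from 114 to 186 CPM, log2 0.70, and the arginine carrier SLC7A1 from 75.7 to 166 CPM, log2 1.13; both were singled out after their values were seen. SLC38A5 fell from 8.77 to 3.30 CPM, log2 -1.41. The sum over the list was 3276 to 3475 CPM with BAY 60-2770 and 2170 to 2256 CPM with solvent.

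Genes of the integrated stress response, which ATF4 drives when amino acids are short or the endoplasmic reticulum is stressed, were more often lower than higher. Of 22 tested genes 4 were higher and 10 lower (median -0.12). Asparagine synthetase (ASNS) fell from 8.14, 7.36 and 7.36 to 3.38, 4.33 and 4.19 CPM (log2 -0.95, SE 0.110) and VLDLR from 147 to 89.1 CPM, log2 -0.72, while CTH, which makes cysteine (10.7 to 31.6 CPM, log2 1.56), the cytokine GDF15 (47.1 to 97.9 CPM, log2 1.06) and the mTORC1 inhibitor DDIT4 (1207 to 1802 CPM, log2 0.58) rose. ATF4 stood at 330.1 and 346 CPM and was not called. None of the 19 tested cytosolic aminoacyl-tRNA synthetases was called higher and 14 were lower (median -0.18), led by MARS1 (40.04 to 27.5 CPM, log2 -0.54) and FARSB (24.9 to 17.9 CPM, log2 -0.47); 9 were lower in a fit of the 6 hypoxic libraries alone.

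Cholesterol synthesis and uptake fell together. None of the 24 tested genes was called higher (1 was, without treated replicate 3) and 20 were lower, with a median of -0.55, against 16.5% of all genes higher and 21.4% lower. Squalene epoxidase (SQLE), a rate-limiting step after squalene, fell from 97.7, 102 and 99.4 to 53.1, 52.2 and 47.6 CPM (log2 -0.97, SE 0.0407). Every treated library was below every control. INSIG1, which holds back the activation of SREBP (137 to 80.8 CPM, log2 -0.76), and the synthases LSS (122 to 72.9 CPM, log2 -0.74) and HMGCS1 (135 to 80.5 CPM, log2 -0.74) fell.

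SREBF2, which encodes the master regulator of this pathway, fell slightly from 327 to 275 CPM, log2 -0.25, and was singled out after its values were seen. Among the targets of the oxysterol receptor LXR, SCD (2685 to 2247 CPM, log2 -0.26) and SREBF1 (188 to 163 CPM, log2 -0.20) fell a little, and the receptor genes NR1H2 (48.5 to 59.7 CPM, log2 0.30) and NR1H3 (15.0 to 17.0 CPM, log2 0.18) rose a little, the latter a call lost in 4 settings. ABCA1 was not called (381 and 350.3 CPM). In all 2 of 8 tested genes of cholesterol efflux and LXR were higher and 3 lower (median -0.12), with 1 higher without treated replicate 3 or control replicate 1 or 3.

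The promoters of the lower cholesterol genes were searched for the sterol response element that SREBP binds, with the letters TCACNCCAC on both strands. RefSeq's table held 15 of the 20 genes. The element was in 1, SREBF2, against 1.13% of all promoters; its first base is at -133 from the start site (chr22:41832932-41833020, plus strand, GRCh38.p14), in capitals below.
SREBF2: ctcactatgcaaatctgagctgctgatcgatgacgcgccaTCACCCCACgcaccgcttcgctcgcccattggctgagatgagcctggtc
Sites that differ from these letters by a base were not searched. List members not called lower were not compared as a set, so a link of this element to the compound was not tested.

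**Figure D4:**
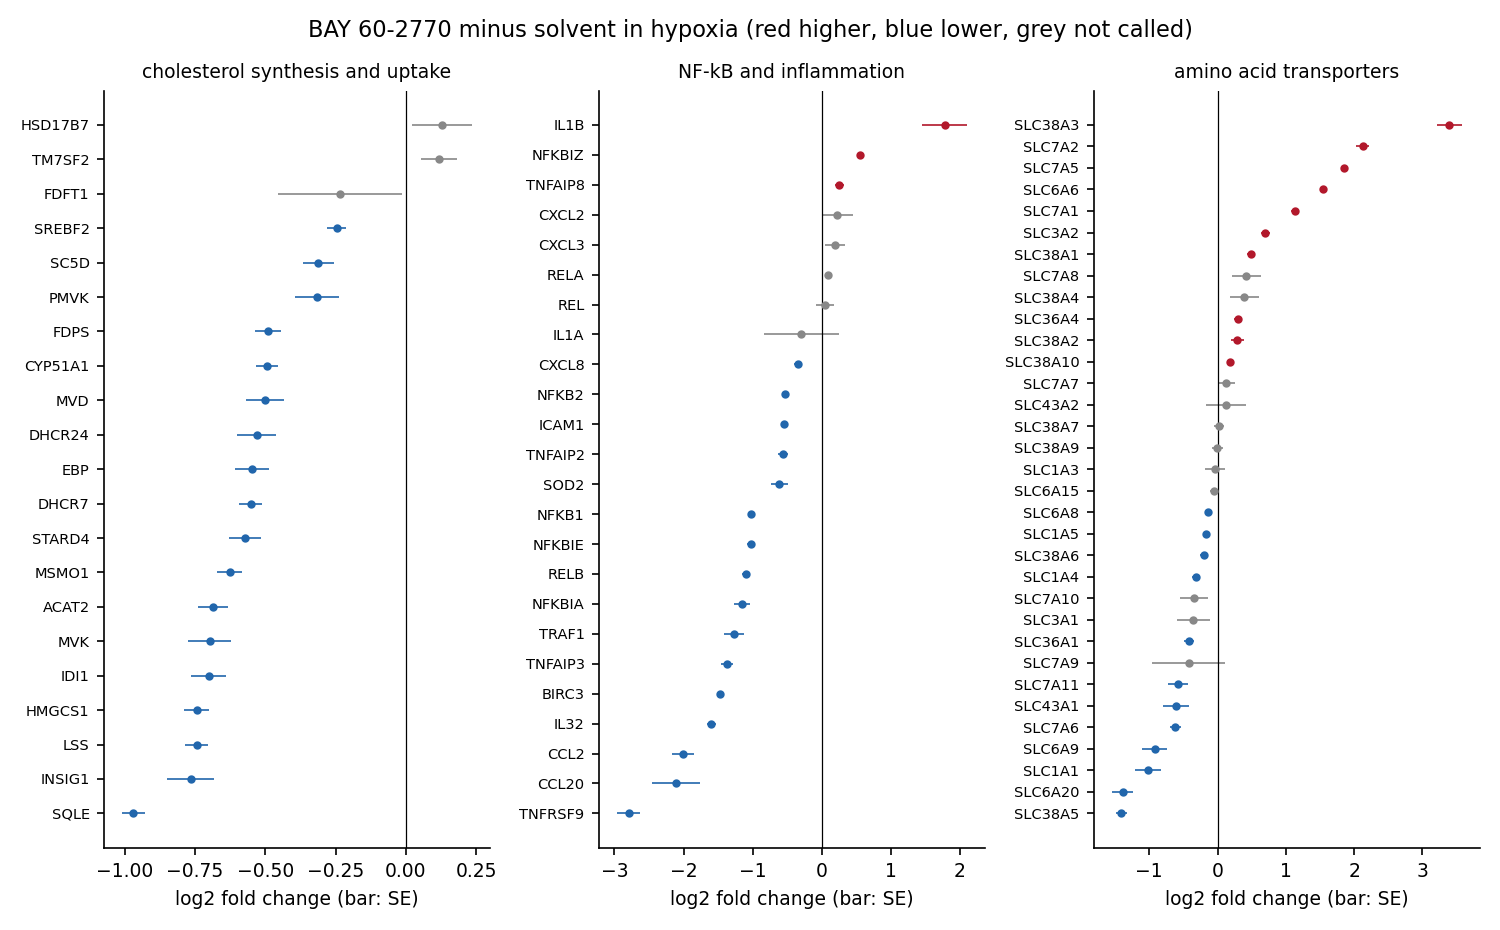
Log2 fold change with BAY 60-2770 in hypoxia (horizontal axis, bars are the SE) of tested members of the cholesterol (21 of 24 drawn), NF-kB and amino acid transporter lists; red is higher, blue lower and grey not called. The cholesterol genes drawn fall as a block apart from TM7SF2, HSD17B7 and FDFT1, the NF-kB list ranges from TNFRSF9 at -2.80 to IL1B at 1.78, and the transporters spread over both sides.

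NF-kB targets and inflammatory genes were mostly lower. Of 24 tested genes 16 fell and 3 rose (median -0.59). BIRC3, an inhibitor of apoptosis, fell from 139.8, 141 and 124 to 49.7, 50.4 and 46.7 CPM (log2 -1.47, SE 0.0573), TNFAIP3, the feedback inhibitor A20, from 53.6, 52.8 and 53.4 to 17.8, 20.0 and 24.1 CPM (log2 -1.37, SE 0.0826) and the cytokine IL32 from 151, 167 and 172 to 54.1, 49.7 and 57.8 CPM (log2 -1.60, SE 0.0645). No treated library reached a control in these genes.

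TNFRSF9, a receptor of the TNF family, dropped from 4.86 to 0.700 CPM, log2 -2.80, and the chemokine CCL2 from 1.15 to 0.283 CPM, log2 -2.01, both at few counts in one of the groups. The pathway's own subunits and inhibitors fell as well: NFKB1 from 38.6 to 19.0 CPM, log2 -1.02, RELB from 33.7 to 15.7 CPM, log2 -1.10 and NFKBIA from 101 to 45.3 CPM, log2 -1.15, while RELA held 74.9 and 79.6 CPM and was not called. NFKBIZ rose from 246 to 361 CPM, log2 0.55, TNFAIP8 from 28.8 to 34.4 CPM, log2 0.25, and IL1B, below 1 CPM in both groups, from 0.198 to 0.687 CPM, log2 1.78.

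Interferon-stimulated genes showed 18 lower and 5 higher of 30 tested (median -0.35). The RNA sensor IFIH1 fell from 8.96, 10.6 and 9.17 to 2.79, 2.99 and 4.12 CPM (log2 -1.54, SE 0.112); IFIT3 (77.7 to 32.5 CPM, log2 -1.26), IFIT2 (57.8 to 24.7 CPM, log2 -1.23), IFIT1 (37.8 to 17.2 CPM, log2 -1.13) and OAS3 (23.7 to 11.7 CPM, log2 -1.01), all antiviral effectors, fell by similar amounts. ISG15 (8.99 to 13.3 CPM, log2 0.57) and GBP2 (46.5 to 76.1 CPM, log2 0.71) rose, so that the list did not move as a block.

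The p53 targets had 17 lower and 1 higher of 24 tested (median -0.45). ZMAT3 fell from 19.5, 18.3 and 14.0 to 6.01, 6.04 and 6.36 CPM (log2 -1.50, SE 0.0899), PLK2 from 81.1, 84.7 and 84.9 to 31.3, 36.1 and 31.3 CPM (log2 -1.34, SE 0.121), and the stress gene GADD45A (21.0 to 8.92 CPM, log2 -1.24) and the nuclease AEN (7.21 to 3.08 CPM, log2 -1.23) fell too. CDKN1A, the best known target, stood at 88.9 and 87.5 CPM, and MDM2 at 46.2 and 43.5 CPM; neither was called. The groups of the single higher call, DDB2 (27.0 to 30.5 CPM, log2 0.18), overlapped, and the call was lost without treated replicate 3 or control replicate 1 or 2.

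Proliferation genes divided. Cyclin D1 (CCND1) fell from 4.74, 5.08 and 4.83 to 0.680, 1.31 and 1.06 CPM (log2 -2.27, SE 0.171), while RRM2, the ribonucleotide reductase subunit of S phase, rose from 78.2, 82.0 and 80.7 to 234, 273 and 202 CPM (log2 1.56, SE 0.0905). CDK1 (57.4 to 82.2 CPM, log2 0.52) and CDC6 (19.6 to 28.4 CPM, log2 0.54) rose modestly, and MKI67 was not called (342 and 319 CPM). Of 30 tested genes 10 were higher and 4 lower, with a median of 0.04. The share called, 46.7%, was near the 47.6% of protein-coding genes. Without treated replicate 2 there were 8 lower and the median was -0.02.

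Targets of YAP and TEAD, factors that respond to cell shape and tension, had 11 lower and 4 higher of 21 tested (median -0.23). ANKRD1 fell from 3.63, 4.09 and 4.41 to 0.579, 0.515 and 0.702 CPM (log2 -2.75, SE 0.137), FJX1 from 14.4 to 5.27 CPM, log2 -1.45 and CCN1 from 109 to 50.4 CPM, log2 -1.11 (SE 0.299; lost when all 24 libraries were fitted); CCN2 was not called (7.77 and 4.35 CPM) and CCN5, of the same family, rose. Actin and SRF genes had 11 lower and 6 higher of 25 (median -0.21). The tropomyosin TPM1 fell from 411, 436 and 454 to 194, 211 and 194 CPM (log2 -1.12, SE 0.0432) and the myosin kinase MYLK from 199.7 to 134 CPM, log2 -0.58. SYNPO, which binds actin and alpha-actinin, rose from 462, 459 and 497 to 1264, 1259 and 1389 CPM (log2 1.46, SE 0.0941), and its partner ACTN4 from 121 to 173 CPM, log2 0.52. Smooth muscle actin ACTA2 was scarce (1.70 and 2.10 CPM). Of 17 genes of epithelial-mesenchymal transition 4 were higher, among them SNAI1 (9.64 to 16.2 CPM, log2 0.75) and ZEB2 (6.91 to 10.9 CPM, log2 0.66), and 7 lower, among them S100A4 (7.53 to 4.74 CPM, log2 -0.67) and TWIST1 (10.4 to 7.79 CPM, log2 -0.42); the median was -0.09, and CDH1 and VIM were not called (13.8 and 12.9 CPM and 1148 and 1080.4 CPM).

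BAY 60-2770 did not shift the hypoxic programme in one direction. EPAS1, which encodes HIF-2 alpha, rose from 442, 407 and 427 to 981, 942 and 993 CPM (log2 1.19, SE 0.0462, edgeR adjusted p 5.5e-11), with all treated libraries at more than 2 times any control. HIF1A held 325, 315 and 301 CPM with solvent and 392, 402 and 325 CPM with BAY 60-2770, where the lowest treated library was level with the highest control; its call (log2 0.25) was lost in 7 settings, without any of the 3 controls (0.28, 0.25 and 0.22) and without treated replicate 1 or 2 (0.21 and 0.19) among them. ARNT rose from 56.5 to 67.6 CPM, log2 0.26, and VHL, which marks HIF alpha for degradation, fell from 74.2 to 60.1 CPM, log2 -0.30. Of 8 tested HIF subunits and oxygen sensors 3 were higher and 2 lower (median 0.10).

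Of 34 tested HIF targets 10 were higher and 10 lower (median 0.03). The carbonic anhydrase CA12 rose from 19.3, 17.6 and 17.9 to 55.6, 59.3 and 70.2 CPM (log2 1.76, SE 0.172), whereas its relative CA9, a classical HIF-1 target, was not called (9.30 and 7.54 CPM). DDIT4 and NDRG1 (8709 to 12295 CPM, log2 0.50) rose, the latter a call lost without control replicate 1 or 2 (0.49 and 0.46), and VEGFA rose from 254 to 315 CPM, log2 0.31, singled out after its values were seen and lost in 7 settings, among them those without treated replicate 3 (0.16) or control replicate 1 or 2 (0.32 and 0.26). ANGPTL4, an inhibitor of lipoprotein lipase, fell from 8.41, 8.18 and 7.52 to 2.69, 2.71 and 3.59 CPM (log2 -1.42, SE 0.374; lost when all 24 libraries were fitted), and PGK1 from 2249 to 1851 CPM, log2 -0.28. The count of higher targets dropped to 4 without control replicate 2 and to 6 without control replicate 1 or treated replicate 3.

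Glycolysis showed 3 higher and 6 lower of 17 (median -0.14), a share called of 52.9% against 47.6% of protein-coding genes. SLC16A1, the lactate carrier MCT1, fell from 317, 317 and 352 to 128, 146 and 156 CPM (log2 -1.20, SE 0.0693) and HK1 from 290.1 to 208 CPM, log2 -0.48, and PFKP rose from 616 to 809.6 CPM, log2 0.39. Of the 13 mitochondrial genes 6 were lower and none higher (median -0.21), all by small amounts such as those of MT-ND3 (279.7 to 212 CPM, log2 -0.40) and MT-CO3 (1245 to 964 CPM, log2 -0.37). The share called, 46.2%, was near the 47.6% of protein-coding genes. For these genes, leaving out treated replicate 1 or 3 or control replicate 1 left 3 lower, and 1 was called higher without treated replicate 3. Among 22 autophagy genes 6 were higher and 6 lower (median 0.08), and GABARAPL1, a partner of LC3 on autophagosomes, was far from the rest, with 635, 595 and 539 CPM against 138, 140.2 and 134 CPM (log2 2.10, SE 0.0617). Leaving out treated replicate 2 or 3 or control replicate 3 left 3 lower. The share of the autophagy genes called was 54.5%, against 47.6% of protein-coding genes.

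Of 20 tested proteoglycan genes 9 were higher and 4 lower (median 0.12). The small leucine-rich proteoglycan LUM rose from 83.4, 79.8 and 88.6 to 182, 191 and 198 CPM (log2 1.18, SE 0.0966) and versican (VCAN) from 502 to 829 CPM, log2 0.72; the sulfotransferase UST fell from 11.9 to 7.05 CPM, log2 -0.75. Of 23 collagens 4 were higher and 6 lower (median -0.05, or 0.03 with a stricter filter). The share called, 43.5%, lay between the 37.9% of all genes and the 47.6% of protein-coding genes. COL8A1 (94.8 to 158 CPM, log2 0.74) and COL7A1 (673 to 1013 CPM, log2 0.59) rose, COL12A1 fell (6.65 to 3.55 CPM, log2 -0.90), and COL1A1, the fibrillar collagen of scars, stood at 44.2 and 42.8 CPM and was not called.

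Proteins with a fibrinogen-like domain had 5 higher and 2 lower of 10 tested (median 0.85). FIBCD1 was accompanied by FGB, the fibrinogen beta chain (26.9, 29.6 and 25.9 to 80.5, 74.7 and 61.4 CPM, log2 1.39, SE 0.0813), and FGA (0.774 to 3.32 CPM, log2 2.10), while tenascin C (TNC) fell from 53.5 to 27.9 CPM, log2 -0.94. Of the MEF2 factors and class IIa deacetylases 5 of 7 were lower, MEF2C and HDAC9 as above and HDAC7 (75.5 to 51.0 CPM, log2 -0.57), HDAC5 (115 to 89.1 CPM, log2 -0.37) and MEF2A (41.8 to 38.3 CPM, log2 -0.12), the last outside the naming rule; HDAC4 alone rose, from 16.7, 16.3 and 13.9 to 32.6, 32.3 and 30.8 CPM (log2 1.03). Markers of tubular injury had 9 lower and 4 higher of 15 (median -0.37). SOX9, a factor of tubule repair, fell from 72.4, 70.2 and 78.7 to 28.5, 31.5 and 33.7 CPM (log2 -1.24, SE 0.0600), and the keratin KRT19 from 188 to 121 CPM, log2 -0.64. CD24 rose from 757 to 1343 CPM, log2 0.83, and HAVCR1 (KIM-1) was not called (496 and 545 CPM).

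A difference in the response to BAY 60-2770 between oxygen levels was called for a smaller share of genes than the change in hypoxia. The SE of such a difference can be larger, as for FIBCD1 (0.355 against 0.210). The shares called therefore do not tell how many genes responded alike at both oxygen levels. The interaction, the log2 change with BAY 60-2770 in hypoxia minus that in normoxia, was called for 3571 genes, 16.8% of those tested. It was more positive in hypoxia for 1882 (8.83%) and less positive for 1689 (7.92%). Of the 1082 genes changed at least 2-fold in hypoxia, 335 had a called interaction, 758 were also called in the same direction in normoxia and 14 in the other. With normoxic controls 1, 2 and 5 alone 5821 interactions were called, and with controls 3 and 4 alone 3021, so that this count depends on which controls are used.

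FIBCD1 had the most positive interaction under the naming rule, at 4.06 (SE 0.355, adjusted p 2.9e-06, edgeR), with values of 4.03 and 4.15 against the separate control sets. SLC7A5 followed a different pattern: it rose in hypoxia and was slightly lower with BAY 60-2770 in normoxia, with 68.3, 68.4 and 71.0 CPM in normoxia with BAY 60-2770 and 74.4 to 77.4 CPM in its 5 controls, and an interaction of 1.98 (SE 0.0608). EPAS1 was not called in normoxia (edgeR adjusted p 0.47), with 294 ± 8.35 CPM (SD, n = 3) in normoxia with BAY 60-2770, 286 ± 11.6 CPM (SD, n = 5) in normoxic controls and an interaction of 1.15 (SE 0.0618). LIF, also not called there (edgeR adjusted p 0.25), held 40.6 ± 0.772 CPM (SD, n = 3) in treated normoxic cells and 44.5 ± 4.88 CPM (SD, n = 5) in their controls (interaction 1.43).

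CA12 fell with BAY 60-2770 in normoxia, from 23.3 to 13.9 CPM, and rose in hypoxia (interaction 2.51). Its interaction was 2.75 against controls 1, 2 and 5 and 2.14 against controls 3 and 4. The hydrolase-like gene ADPRHL1 (2.07 to 9.13 CPM, log2 2.14 in hypoxia, interaction 2.47) and ITPRIP, which modulates the receptor for inositol trisphosphate (6.88 to 31.9 CPM, log2 2.21, interaction 2.38) had values of similar size. The interaction of the keratin KRT17, 2.23, came mostly from normoxia, where it fell from 4.59 to 1.29 CPM (log2 -1.83); its rise in hypoxia (5.49 to 7.25 CPM, log2 0.40) was lost when all 24 libraries were fitted. ATF3 ranged over 9.09 to 18.4 CPM in the normoxic controls, whose replicates 3 and 4 held the low values, and its interaction of 2.43 was 2.79 against controls 1, 2 and 5 and 1.76 against controls 3 and 4. RHOB depended on them more, with 1.79 in all, 2.23 against controls 1, 2 and 5 and 0.84 against controls 3 and 4. Its call was lost in most leave-one-out fits.

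In the other direction, PDK4, which restrains pyruvate oxidation, rose far more in normoxia, from 12.7 ± 4.13 (SD, n = 5) to 209.9 ± 3.72 CPM (SD, n = 3), than in hypoxia, where it had 19.5, 18.9 and 16.0 CPM with solvent and 46.1, 50.2 and 34.9 CPM with BAY 60-2770 (interaction -2.77, SE 0.350; -2.43 and -3.39 against the separate control sets). IGFBP3 ended higher in hypoxia but rose by less there, from 65.5 to 611 CPM in normoxia (interaction -1.04). IGFBP1, which rose at both oxygen levels, had an interaction of -1.88. Under the naming rule, the acetyltransferase-like gene NAT16 (-1.51), the retinol dehydrogenase DHRS9 (-1.44), BTG1-DT (-1.41), the vesicle GTPase RAB26 (-1.32) and ARRDC4 (-1.30) followed PDK4 in interaction value. In hypoxia NAT16 (log2 1.61), DHRS9 (log2 0.66) and BTG1-DT (log2 0.35, a call lost in some settings) rose. RAB26 and ARRDC4 did not rise in hypoxia. ARRDC4 was among the 15 largest falls there and fell less in normoxia. Against the separate control sets NAT16 had -1.37 and -1.66, and DHRS9 had -1.22 and -1.74. IL11 reached 78.9 ± 5.35 CPM in normoxia (SD, n = 3) against 80.9 ± 8.01 CPM in hypoxia (SD, n = 3); its interaction of -0.41 was called but was lost in 9 settings, among them those without any 1 of the normoxic treated libraries (-0.33, -0.41 and -0.42), without treated hypoxic replicate 1 or 3 (-0.42 and -0.34) and without hypoxic control 1 or 2 (-0.41 both).

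Among the lists, actin and SRF genes had 18 of 25 members with a more positive response in hypoxia and none less positive, and 21 and 16 were more positive against controls 1, 2 and 5 and against 3 and 4. Their median change was -0.57 in normoxia and -0.21 in hypoxia. TPM1 fell from 539 to 169 CPM in normoxia, more than in hypoxia (interaction 0.56). YAP and TEAD targets had 13 of 21 more positive and 1 less, with medians of -0.79 and -0.23; ANKRD1 went from 16.5 to 0.499 CPM in normoxia (interaction 2.30). HIF targets had 17 of 34 more positive and 2 less, 23 and 13 more positive against controls 1, 2 and 5 and against 3 and 4, with medians of -0.39 and 0.03. Cholesterol genes had none more positive and 9 of 24 less positive (against controls 3 and 4, 1 was more positive), with medians of -0.27 in normoxia and -0.55 in hypoxia. Of all tested genes, 8.83% were more positive in hypoxia and 7.92% less positive. Against controls 1, 2 and 5 these shares were 15.6% and 12.0%, and against controls 3 and 4 they were 7.30% and 6.65%. The counts in the lists therefore have to be read against a share that itself changes with the controls. The comparisons in normoxia and in hypoxia share no library.

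**Figure D5:**
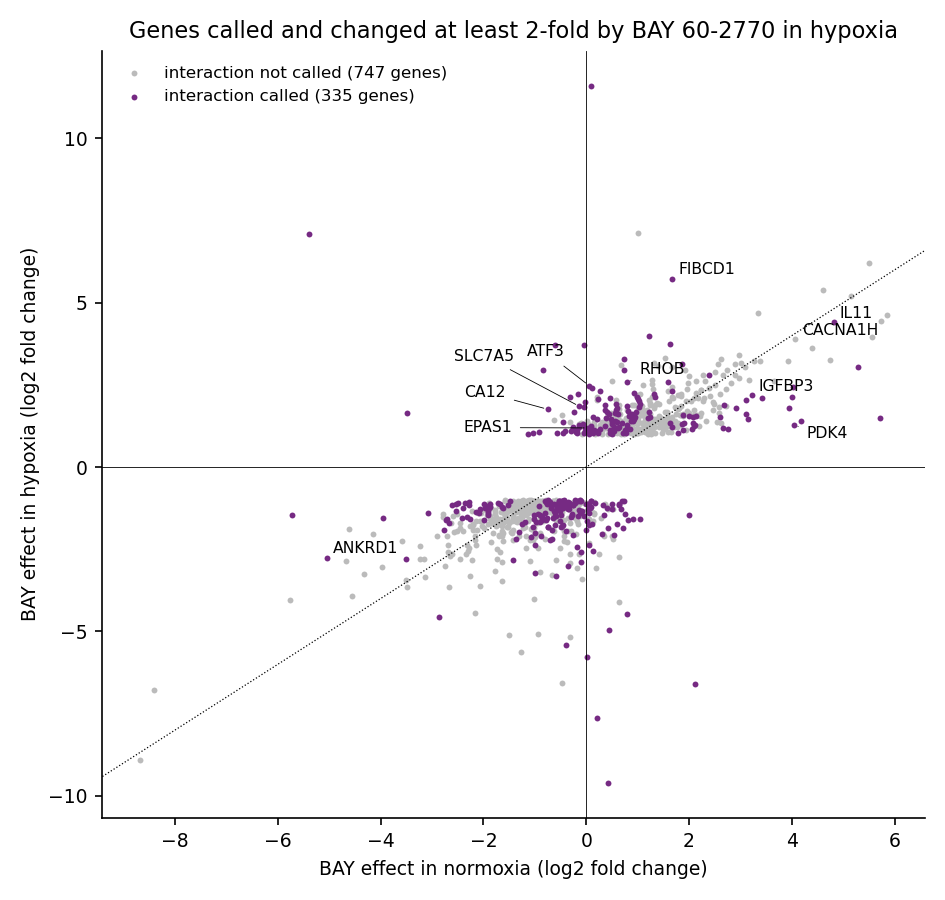
Log2 fold change with BAY 60-2770 in hypoxia (vertical axis) against that in normoxia (horizontal axis) of the genes called and changed at least 2-fold in hypoxia; purple points had a called interaction, grey points did not, and the dotted line marks equal changes. IL11 and CACNA1H lie near the line, FIBCD1, SLC7A5, ATF3 and CA12 above it, and PDK4 and IGFBP3 below it; the empty band about 0 on the vertical axis is the 2-fold limit that selects the genes.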

How the data were processed

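Poly(A) RNA-seq libraries of HK-2 cells were made from 400 ng of total RNA, per the labels' protocols. The authors deposited estimated counts, an expected count per Ensembl gene from Salmon on GRCh38 (hg38), with DESeq2 also named, per the submitters' processing notes. No tool version, annotation or strand setting is stated ("not given in the sources used here"). Values (65180 IDs, 48.6% of those above 0 not whole) were rounded to whole counts. Salmon divides reads among similar transcripts, so paralogs can trade reads. Symbols matched 58919 IDs; the other 6261 held 4.36% of counts and stayed in. Positions are GENCODE 29, which may not be the authors' annotation.

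The 14 libraries of the hypoxia experiment were fitted with 1 coefficient per group in edgeR 4.0.16 (R 4.3.3; TMM, filterByExpr, robust quasi-likelihood), with the contrast of BAY 60-2770 against solvent in hypoxia and its difference from that in normoxia; p-values were adjusted by Benjamini-Hochberg over 21316 genes. The SE was taken as the absolute log2 change over the root of edgeR's F. The method was tested on simulated data. Alternatives were DESeq2 1.42.0, limma 3.58.1 voom, DESeq2 size factors, other filters, other library sets, a replicate block and each library left out. For the calls in hypoxia only the hypoxic libraries were left out singly.

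Named genes were the 4 markers, the 15 largest rises and falls at 5 CPM or more without overlap, up to 5 called members per list at 1 CPM or more, every cyclic GMP and cell marker gene, and the 6 most positive and most negative interactions; other genes named in the lists were added after their values were seen. Some members of the lists are counted but not reported here by name. The comparison, its markers and all 30 lists were chosen with earlier results of these data known. The hypoxic libraries held 78862528 to 97240246 counts; intervals for counting error are not given, since the fit uses the spread between replicates.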

Additional observations from a re-analysis of the deposited data

Results flagged for a closer look

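By edgeR's test of the difference itself, the effect of BAY 60-2770 differed between hypoxia and normoxia for 24 genes named above. They were named as markers, largest changes or largest differences. Genes named as largest differences were chosen by this same difference, so the count does not tell how common such differences are. Over all tested genes the difference was called for 16.8%. As log2 change in hypoxia minus that in normoxia, the values were 4.06 for FIBCD1, 2.51 for CA12, 2.47 for ADPRHL1, 2.43 for ATF3, 2.38 for ITPRIP, 2.23 for KRT17, 1.98 for SLC7A5, 1.79 for RHOB, 1.26 for KCNK15 and 0.40 for PAPPA. Less positive in hypoxia were PDK4 at -2.77, NAT16 at -1.51, DHRS9 at -1.44, BTG1-DT at -1.41, RAB26 at -1.32 and IL11 at -0.41. Of these, RAB26 did not rise in hypoxia. Genes that fell in hypoxia and fell less in normoxia were ARRDC4 at -1.30, MIR3142HG at -1.15, PIK3IP1 at -1.06, DOK3 at -1.03, MEF2C at -0.80, CCDC88C at -0.78, NAT8L at -0.68 and MAP3K4-AS1 at -0.47. Some depended on the normoxic controls used. MIR3142HG had -1.47 against controls 1, 2 and 5 and -0.74 against controls 3 and 4, and DOK3 had -1.29 and -0.66.

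One normoxic control library lay far from the other 4 of its group for PIK3IP1, replicate 4 at 18.7 CPM. Chance alone marks about 1 in 20 groups in this way. All genes named as markers, largest changes or largest differences were searched, so a single mark can arise by chance.

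The libraries with TGF-β1 (n = 5 without and n = 5 with BAY 60-2770), which the main comparison does not use, also held the marker genes above every normoxic control (CPM scaled over all 24 libraries). FIBCD1 had a median of 5.71 CPM with TGF-β1 and 18.5 CPM with TGF-β1 and BAY 60-2770, against at most 0.13 CPM in controls. IL11 had medians of 305 and 1602 CPM against at most 3.10 CPM, CACNA1H of 16.5 and 32.6 CPM against at most 2.87 CPM, and SLC7A5 of 154 and 197 CPM against at most 75.9 CPM.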

How the results depend on the processing

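None of the called genes followed through the settings changed direction in any alternative. The count of genes called in hypoxia ranged from 6879 to 7520 with 1 hypoxic library left out, against 8087, and was 8283 with DESeq2, 7990 with limma voom and 7761 with the 6 hypoxic libraries alone. Of 195 called genes followed through the settings, 171 kept their call in every one and 24 lost it in some. Normoxic libraries were not left out singly for these calls, so that loss without 1 of them was not tested. A stricter filter left 635 genes changed at least 2-fold, since it tests fewer low genes. With normoxic controls 1, 2 and 5 only, an alternative chosen after seeing the data, 5821 interactions were called, 3294 of them more positive; the cause was not tested. Interactions called less positive ranged from 1018 to 1906 with 1 library left out, the lowest 3 values without 1 of the normoxic libraries with BAY 60-2770 (1025, 1018 and 1096); the cause was not tested. With the 6 hypoxic libraries alone 5 CREB-responsive genes were lower instead of 2; with all 24 libraries fitted 4 HIF targets were higher and 6 lower instead of 10 each, and 2 injury markers were higher instead of 4; a stricter filter left 2 lower genes of the IGF axis instead of 4. The interaction calls of IL11, PAPPA, RHOB, MAP3K4-AS1 and MIR3142HG were lost in some settings.

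The labels give groups the same replicate numbers. With the replicate block 7864 genes were called in hypoxia and 3038 interactions. Deviations of same-numbered hypoxic libraries correlated at 0.0624, 0.0862 and 0.101, and those of differently numbered ones at -0.0202 to -0.0639. Each library correlated best with its own number, a hint of pairing from the data only. The labels do not state pairing, and the main fit treated the libraries as sharing no more than a number. Whether they were paired cultures stays unknown.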
